A study of Mus musculus with 6 samples.

Results

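MHC class II molecules hold peptides on the surface of antigen-presenting cells, and the genes of this presentation system were followed here in eWAT, the white fat pad that lies along the epididymis. The genes were taken by symbol, whatever their level: H2-Aa, H2-Ab1, H2-Eb1, H2-DMa, H2-DMb1, H2-DMb2, H2-Oa, H2-Ob, Cd74 and Ciita. Of these 10 genes, 7 had a probe among the 17086 named genes of the array, and H2-DMa, H2-DMb2 and H2-Oa matched no probe and were not analysed here. The 7 genes had 10 probes, of which 4 belonged to H2-Eb1.

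The tested mice were 3 db/db mice, which are homozygous for a leptin receptor mutation in every cell and are described in the labels as obese and hyperglycemic. Their controls were 3 lean db/+ mice, which carry 1 copy of the same allele. All were 10 weeks old, and per the file headers all were given a vehicle. Each array set 1 mouse, in Cy5, against pooled eWAT of vehicle-treated lean animals, in Cy3, so a log2 ratio of 0 means the level of the pool. The headers number the db/db mice 51, 52 and 53 and the db/+ mice 1, 2 and 3.

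A class II molecule is a pair of an alpha and a beta chain that displays fragments of proteins taken up by the cell to CD4+ T cells. The invariant chain Cd74 escorts new pairs to the endosome, where proteases such as cathepsin S trim it, and the DM protein then helps the remaining fragment to be exchanged for a peptide. Transcription of the whole set depends on the coactivator Ciita, which interferon gamma induces in many cells. In fat, macrophages, dendritic cells and B cells carry class II molecules, and adipocytes of obese mice have been described as carrying them as well.

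Between 23355 and 23506 probes were measured per array, and 31.7% to 37.9% of them gave a Cy5 intensity no higher than 0.05 on the deposited scale, whose top lay between 26.9 and 30.5. Of all intensities of both channels, 97.3% fell on steps of 0.01 (tolerance of 0.0001 steps). The ratios of all probes spread more widely in the db/db arrays (SD of 0.53, 0.58 and 0.68 in mice 51, 52 and 53) than in the db/+ arrays (SD of 0.23, 0.28 and 0.24). Adipocyte markers were present on every array: the summed Cy5 intensity of the 8 genes with a value on all 6 arrays was between 23.4 and 42.1 in db/db and between 84.1 and 88.5 in db/+ eWAT. The median log2 ratio of markers of epididymis epithelium, the neighbouring organ, over the 11 or 12 with a value on the array, was -1.68, 3.58 and 4.03 in db/db mice 51, 52 and 53 and 0.67, 0.05 and -1.81 in db/+ mice 1, 2 and 3. Lepr, the mutated gene, was dim (mean Cy5 intensity of 0.0767 in db/db and 0.0867 in db/+ eWAT). The sources used here do not place its probe, so this level checks nothing about the labels.

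All 7 measured class II genes had a lower mean ratio in db/db than in db/+ eWAT, and 3 of them, the peptide-binding chains H2-Aa, H2-Ab1 and H2-Eb1, fell past an adjusted p of 0.05 (limma, Benjamini-Hochberg over 17024 genes). Of all genes tested, 3.75% fell past the same threshold. None of the 7 rose, against 2.95% of all genes, and 6.7% of all genes changed in either direction. At an unadjusted p under 0.05, 5 of the 7 were lower, against 13.3% of all genes, and none was higher, against 9.97%. The median log2 fold change of the 7 genes was -0.80, against 0.00 over all genes tested. In 5 of the 7 genes every db/db ratio lay below every db/+ ratio, which held for 14.6% of genes measured on all 6 arrays. In whole tissue, fewer cells of a type and less RNA per cell cannot be told apart.

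**Figure D1:**
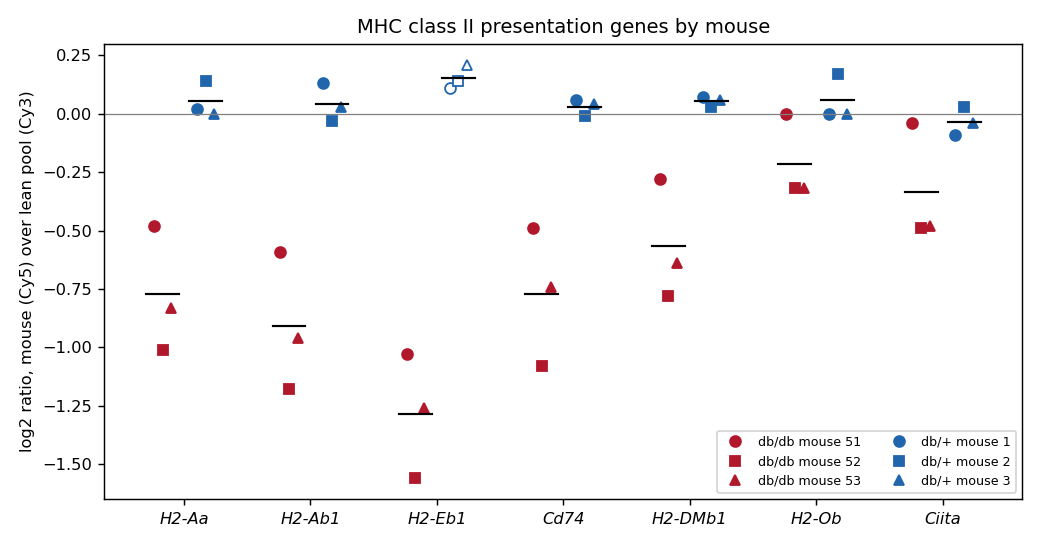
Log2 ratio of each mouse (Cy5) to the lean pool (Cy3) for the 7 measured class II genes, with db/db in red and db/+ in blue, 1 point per mouse, and black lines at the group means. Open points are Cy5 intensities within 1% of the highest on that array. The db/db points lie below all db/+ points except in H2-Ob and Ciita, and db/db mouse 51 is the highest db/db point of every gene.

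The alpha chain gene H2-Aa had log2 ratios of -0.48, -1.01 and -0.83 in db/db mice 51, 52 and 53, against 0.02, 0.14 and 0.00 in db/+ mice 1, 2 and 3. The Cy5 intensities behind them were 0.66, 0.49 and 0.55 in db/db and 1.17, 1.31 and 1.02 in db/+ eWAT. The groups did not overlap, and the log2 fold change was -0.83 ± 0.15 (SE, n = 3 per group; limma adjusted p = 0.0477), a level 1.78-fold lower in db/db.

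H2-Ab1, which encodes the beta chain that pairs with H2-Aa, had log2 ratios of -0.59, -1.18 and -0.96 in db/db mice and 0.13, -0.03 and 0.03 in db/+ mice. It fell by 0.95 ± 0.16 on the log2 scale (SE, limma adjusted p = 0.0427), with no overlap between the groups. Both partners of this pair thus lay at about the same distance below the pool in each db/db mouse, with mouse 51 nearest to the pool and mouse 52 farthest.

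H2-Eb1, the beta chain of the other class II pair, has 4 probes, and the brightest represents it. This probe had log2 ratios of -1.03, -1.56 and -1.26 in db/db mice and 0.11, 0.14 and 0.21 in db/+ mice, and fell by 1.44 ± 0.15 (SE, limma adjusted p = 0.0176). The Cy5 intensities of this probe were 15.89, 11.08 and 13.5 in db/db eWAT, while the 29.74, 28.14 and 28.68 of the db/+ arrays were all within 1% of the highest value on the array. On the Cy5 channel alone this probe was therefore at least 2.16-fold lower in db/db, and the size of its ratio is approximate. With bright probes left out H2-Eb1 fell by 0.81 (limma adjusted p = 0.0188), close to H2-Aa and above H2-Ab1, so the order of the 3 chains by fold change depends on the probe.

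The other 3 probes of H2-Eb1 were fitted with all probes of the table, where 5 of the 10 class II probes fell, against 3.09% of all probes. All 4 probes of H2-Eb1 were among these 5, beside that of H2-Ab1, so the count is not one of separate genes. H2-Aa missed the threshold in this fit (limma adjusted p over probes = 0.0541). The second brightest H2-Eb1 probe was measured on 5 arrays. Its log2 ratios were -1.27, -1.49 and -1.36 in db/db mice against 0.12 and 0.24 in db/+ mice 1 and 3. It was also within 1% of the top on 1 db/+ array. The third probe had Cy5 intensities of 1.04, 0.82 and 0.81 in db/db and 1.60, 1.66 and 1.67 in db/+ eWAT, far from the top of the scale. It fell by 0.81 ± 0.08 on the log2 scale (SE, limma adjusted p over probes = 0.0203). The dimmest probe, with Cy5 intensities of 0.34, 0.23 and 0.28 in db/db and 0.65, 0.54 and 0.64 in db/+ eWAT, fell by 1.13 ± 0.17 (SE, adjusted p over probes = 0.036). All 4 probes were lower in every db/db mouse than in any db/+ mouse measured. Their log2 fold changes ran between -1.55 and -0.81, with the lowest from the bright probes, and on the Cy5 channel alone the differences were -1.11, -1.09, -0.89 and -1.12, from the brightest probe to the dimmest.

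**Figure D2:**
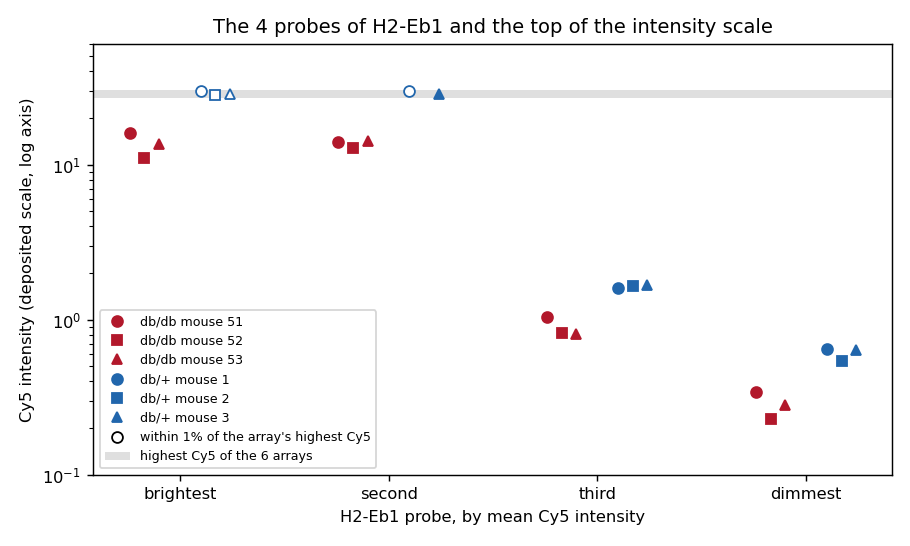
Cy5 intensity (deposited scale, log axis) of the 4 H2-Eb1 probes in the 3 db/db mice (red, left in each pair) and the 3 db/+ mice (blue, right), 1 point per mouse, with 1 db/+ value missing for the second probe. Open points are within 1% of that array's highest Cy5 intensity, and the grey band spans those highest values, from 26.9 to 30.5. The db/+ points of the brightest probe reach the band, and those of the third and the dimmest probe do not.

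H2-Ea, the alpha chain gene that pairs with H2-Eb1, is not among the 10 genes and was taken from a list of further genes of the region; RefSeq annotates it as a transcribed pseudogene. It had log2 ratios of -0.90, -1.30 and -1.03 in db/db mice and 0.06, 0.07 and 0.28 in db/+ mice. It fell by 1.21 ± 0.13 (SE, limma adjusted p = 0.019). All 4 measured chain genes, H2-Aa, H2-Ab1, H2-Ea and H2-Eb1, thus passed the threshold in the same direction.

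Cd74, the invariant chain, had log2 ratios of -0.49, -1.08 and -0.74 in db/db mice and 0.06, -0.01 and 0.04 in db/+ mice. Its Cy5 intensities were 1.79, 1.14 and 1.45 in db/db eWAT and 2.68, 2.73 and 2.58 in db/+ eWAT. The groups did not overlap, yet the log2 fold change of -0.80 ± 0.16 (SE) missed the threshold (limma adjusted p = 0.056). H2-DMb1, a beta chain of the peptide editor DM, had log2 ratios of -0.28, -0.78 and -0.64 in db/db mice and 0.07, 0.03 and 0.06 in db/+ mice. Its log2 fold change of -0.62 ± 0.14 (SE, adjusted p = 0.0733) also missed the threshold without any overlap of the groups. For both genes the db/+ ratios lay within 0.1 of the pool and the db/db ratios were spread over a wider range, with mouse 51 nearest to the pool.

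H2-Ob encodes the beta chain of DO, which inhibits DM, and was near the bottom of the scale. Its Cy5 intensity was 0.04 in each of the 3 db/db mice, while the db/+ mice had 0.04, 0.09 and 0.04, a few steps of 0.01. Its ratios overlapped between the groups, and the log2 fold change was -0.27 ± 0.11 (SE, limma adjusted p = 0.25).

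Ciita, the coactivator itself, had log2 ratios of -0.04, -0.49 and -0.48 in db/db mice and -0.09, 0.03 and -0.04 in db/+ mice. Mice 52 and 53 were lower than every db/+ mouse, while mouse 51 lay within the db/+ range. The log2 fold change was -0.30 ± 0.14 (SE, limma adjusted p = 0.289). A p above the threshold does not show that the level of Ciita was equal in the groups.

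Of the 7 class II genes, 6, 7 and 7 were below the pool in db/db mice 51, 52 and 53, against 1, 2 and 1 in db/+ mice 1, 2 and 3. The median log2 ratio of the 7 genes was -0.48, -1.01 and -0.74 in db/db mice 51, 52 and 53, and 0.06, 0.03 and 0.03 in db/+ mice 1, 2 and 3. Mouse 52 was the lowest db/db mouse in 6 of the 6 genes whose lowest value was not tied, and it was the lowest in 26.4% of 7443 genes with a lower mean in db/db. Per the authors' deposited table, 4, 6 and 6 of the 7 genes had a p-value under 0.05 against the pool in db/db mice 51, 52 and 53, and 0 in each db/+ mouse. Over all probes those shares were 18.5%, 21% and 27.2% on the db/db arrays and 3.46%, 2.55% and 1.04% on the db/+ arrays.

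Among the db/db mice, mouse 51 had the highest class II median and the lowest epididymis median. Mouse 53 had the highest epididymis median (4.03), while mouse 52 had the lowest class II median (-1.01). In db/+ mice 1, 2 and 3 the class II medians were 0.06, 0.03 and 0.03 beside epididymis medians of 0.67, 0.05 and -1.81. Whether epididymis tissue had a part in the class II medians was not tested. In mouse 51, whose epididymis markers were below the pool, the class II median was -0.48. Without db/db replicates 2 and 3 the median log2 fold change was -0.52. That fit takes the lone db/db mouse to vary like the db/+ mice. With the epididymis median as a covariate the median was -0.66, and 1 gene passed. Of all genes, 1.84% fell past the threshold in that fit. The number of class II genes past the threshold rested on single mice. It was 7, 1 and 0 without db/db replicates 1, 2 and 3 (limma). It was 0 without any one of db/+ replicates 1, 2 and 3. The share of all genes that fell moved as well. It was 10.9%, 0.606% and 1.79% without db/db replicates 1, 2 and 3. Without db/+ replicates 1, 2 and 3 it was 0.614%, 0.342% and 0.135%. At an unadjusted p under 0.05 the number of class II genes was 7 without db/db replicate 1. It was 5 in each of the other fits that left out 1 mouse.

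The promoters of the class II genes are shown because the genes share a control element: an X box bound by the RFX complex and, closer to the gene, a Y box bound by NF-Y, on which Ciita assembles. In the lines below, capitals mark an X motif (TNGNAAC) followed by a Y motif (TGATTGG), each read 5′ to 3′ on the strand of the gene, and the windows are from RefSeq on GRCm38.p6.
H2-Aa, chr17:34287861-34287914, minus strand: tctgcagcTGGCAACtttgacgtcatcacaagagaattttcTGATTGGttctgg
H2-Eb1, chr17:34305766-34305818, plus strand: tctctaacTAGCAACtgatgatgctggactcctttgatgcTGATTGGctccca
H2-DMb1, chr17:34153087-34153140, plus strand: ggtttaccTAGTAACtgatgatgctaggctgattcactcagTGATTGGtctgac
H2-Ob, chr17:34238808-34238858, plus strand: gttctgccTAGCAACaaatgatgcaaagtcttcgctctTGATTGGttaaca

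The pair was sought on both strands of the 250 bases before each gene start, with motif starts between 20 and 45 bases apart, and the spelling of the X motif was chosen after these promoters were read. It lay in the promoters of 4 of the 4 measured class II genes examined here, H2-Aa, H2-Eb1, H2-DMb1 and H2-Ob. Between the motifs lay 26, 25, 26 and 23 bases. The promoter of Cd74 was left out of this count, and H2-Ab1 and Ciita had no entry. The pair was not found in this window of H2-DMa, H2-DMb2 and H2-Oa, the 3 genes without a probe. That says only that these letters are not there. Of 32851 promoters of the same length, 50 held the pair, or 0.152%, while 30.7% held the X motif and 7.23% the Y motif. Since the spelling was chosen on the class II promoters, their count of 4 of 4 is no test and cannot be read against this share. The log2 fold changes of these 4 genes ran between -1.44 for H2-Eb1, on its brightest probe, and -0.27 for H2-Ob. Of 25 other measured genes with the pair, 1 fell, 3 rose and 16 had a fold change below 0, with a median of -0.14. A match is a description of the letters and not evidence that a factor bound there.

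The class II genes of the mouse lie together on chromosome 17, apart from Cd74 and Ciita, and class I peptide-loading genes lie among them. Following the RefSeq order, H2-DMb1 is followed by Psmb9, Tap1, Psmb8 and Tap2, and then by H2-Ob, H2-Ab1, H2-Aa and H2-Eb1. Tap1 and Tap2, the subunits of the transporter that carries peptides to class I molecules, fell by 0.71 ± 0.11 and 0.75 ± 0.14 on the log2 scale (SE, limma adjusted p = 0.0378 and 0.0483). Psmb9 and Psmb8, subunits of the immunoproteasome, had log2 fold changes of -0.71 ± 0.17 (adjusted p = 0.0845) and -0.41 ± 0.23 (adjusted p = 0.363). On the far side of H2-DMb1 the values were near 0, with -0.12 ± 0.05 for Brd2, a chromatin reader (adjusted p = 0.277), -0.04 ± 0.08 for Col11a2, a collagen chain, and -0.10 ± 0.03 for Rxrb, a nuclear receptor.

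**Figure D3:**
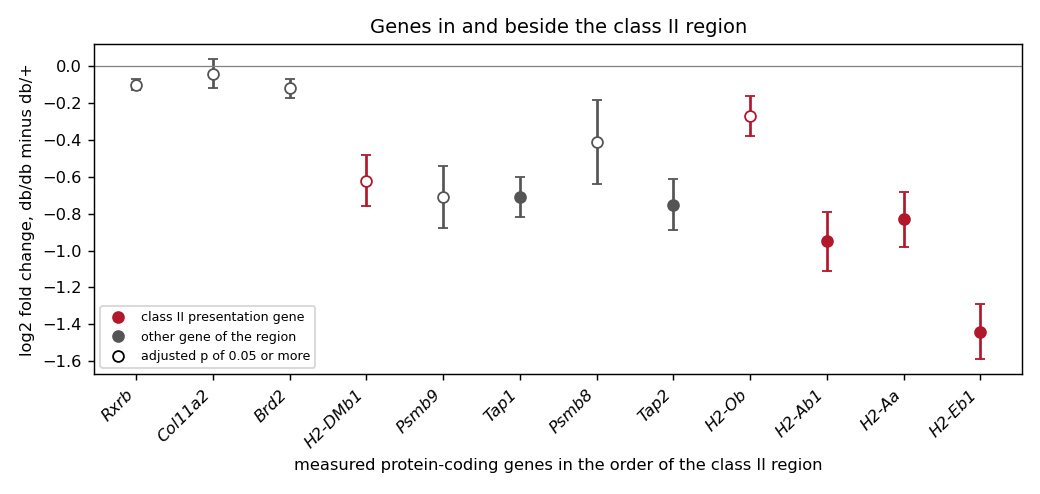
Log2 fold change (db/db minus db/+) with its standard error for the measured protein-coding genes in and beside the class II region, in RefSeq order (n = 3 mice per group; H2-Ea, a pseudogene in RefSeq, is not drawn). Red points are class II presentation genes and grey points other genes, and filled points passed an adjusted p of 0.05. The 3 genes at the left end lie between -0.12 and -0.04, and H2-Eb1 at the right end, on its brightest probe, is at -1.44.

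Signals known to act upstream of Ciita were compared next. Of 10 measured genes of Ciita-inducing signalling, 2 fell and none rose, against 3.75% and 2.95% of all genes. The median log2 fold change was -0.15. The list mixes inducing genes with an inhibitor, so its count and median do not measure the strength of this signalling. Socs1, an inhibitor of interferon signalling that interferon itself induces, fell by 0.75 ± 0.05 (SE, limma adjusted p = 0.00732). Ifng, interferon gamma, also passed (-0.26 ± 0.03, adjusted p = 0.0175), but at Cy5 intensities averaging 0.05 in db/db and 0.0633 in db/+ eWAT its ratios had no spread in either group. Irf1, a factor that binds a Ciita promoter, was at -0.88 ± 0.20 (adjusted p = 0.076), and Spi1, a myeloid factor, at 1.12 ± 0.29 (adjusted p = 0.0941).

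Of 14 other targets of interferon gamma, 4 fell and none rose, with a median log2 fold change of -0.63. Besides Tap2 and the dim Tap1 these were Cxcl9, a chemokine for T cells (-2.05 ± 0.21, SE, limma adjusted p = 0.019), and Gbp3, a guanylate-binding protein (-1.47 ± 0.26, adjusted p = 0.0464). None of the 9 measured factors that bind class II promoters passed the threshold in either direction, and their median was 0.02. Among these, Rfx5, a subunit of the RFX complex, was at -0.04 on the log2 scale (adjusted p = 0.551).

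Genes that act on class II molecules in the endosome had a median above 0. Of 9 measured genes of peptide processing, 2 rose and none fell, with a median log2 fold change of 0.57. Ctss, cathepsin S, which trims the invariant chain, had log2 ratios of 2.53, 1.71 and 1.87 in db/db mice and -0.11, 0.20 and 0.06 in db/+ mice, and rose by 1.99 ± 0.25 (SE, limma adjusted p = 0.0235). Lgmn, an endosomal protease, rose by 1.86 ± 0.20 (adjusted p = 0.019). Ifi30, a thiol reductase of the same compartment, was at 0.52 ± 0.15 (adjusted p = 0.121). Of 5 measured costimulatory genes none passed, and their median was 0.00.

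**Figure D4:**
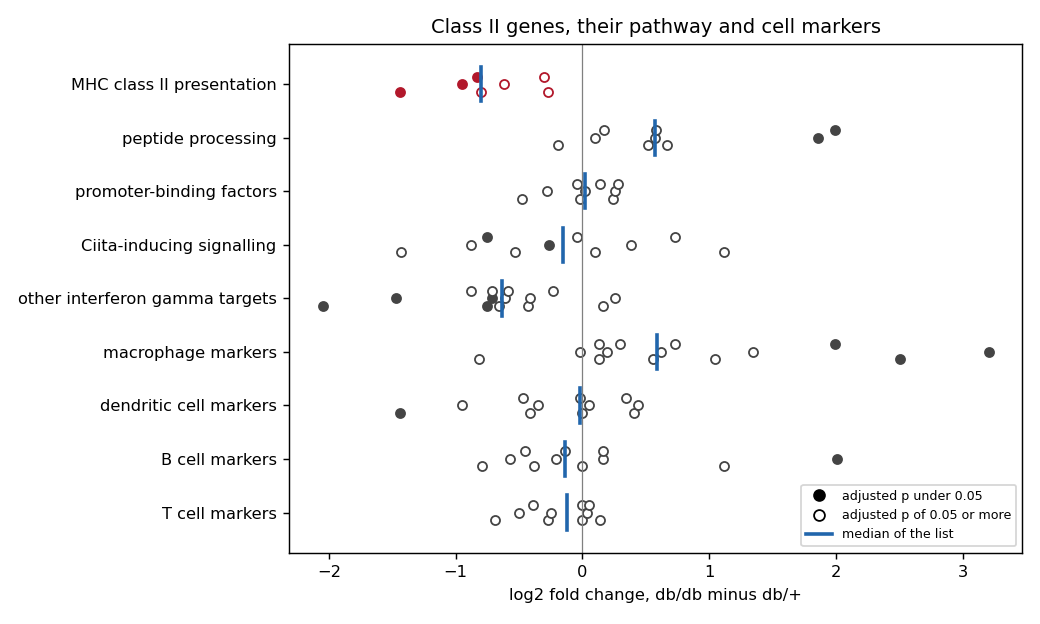
Log2 fold change (db/db minus db/+) of each measured gene in 9 lists, 1 point per gene, filled where the adjusted p was under 0.05, with blue bars at the medians. The class II genes are all below 0 (median of -0.80), and the peptide processing genes (median of 0.57) and macrophage markers (median of 0.59) lie mostly above it.

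Markers of the cells that carry class II molecules did not share 1 direction. Of 14 measured macrophage markers, 3 rose and none fell, with a median log2 fold change of 0.59, and their summed Cy5 intensity was between 68.4 and 128 in db/db and between 53.7 and 67.2 in db/+ eWAT. Itgax, an integrin of macrophages and dendritic cells, rose by 2.51 ± 0.35 (SE, limma adjusted p = 0.0286), Cd68, a lysosomal protein, by 1.99 ± 0.30 (adjusted p = 0.0339) and Gpnmb, a transmembrane glycoprotein, by 3.21 ± 0.16 (adjusted p = 0.00443). The Gpnmb probe was within 1% of the top on 1 db/db array, and the change was 1.66 with bright probes left out (adjusted p = 0.04). Its mean Cy5 intensities of 21 in db/db and 1.22 in db/+ eWAT gave the largest part of the difference between the sums. In db/db mouse 52, which had the lowest db/db sum of 68.4, Gpnmb alone gave 15.36. The macrophage sums thus rest in part on 1 bright gene and do not measure the number of macrophages. Adgre1, which encodes F4/80, was at 1.35 ± 0.38 (adjusted p = 0.117). Of the 14 markers, 12 were above 0 and 2 below, and the size of the changes varied. Cd163 went the other way, at -0.82 ± 0.20 (adjusted p = 0.09), with no overlap between the groups. Csf1r and Mrc1 were at 0.30 and 0.13, with overlapping groups. In every db/db mouse the macrophage median was above 0 (1.05, 0.27 and 0.54 in mice 51, 52 and 53) while the class II median was below it.

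Of 11 measured dendritic cell markers, 1 fell and none rose, with a median of -0.02. Their summed Cy5 intensity was between 12.4 and 16 in db/db and between 16.1 and 20 in db/+ eWAT. The largest parts came from Fscn1, with means of 7.3 in db/db and 13.1 in db/+ eWAT, and Cd24a, with 4.29 and 2.55. Cd24a had 0.53, 4.42 and 7.91 in db/db mice 51, 52 and 53. These sums thus rest on a few bright genes and do not measure the number of dendritic cells. The marker that fell was Cd209a, a lectin of monocyte-derived dendritic cells (-1.44 ± 0.21, SE, limma adjusted p = 0.0314), at mean Cy5 intensities of 0.0733 in db/db and 0.207 in db/+ eWAT. Flt3, a defining receptor of dendritic cells, was near the bottom of the scale at 0.0533 in db/db and 0.0467 in db/+ eWAT. Of 11 measured B cell markers, 1 rose, the adaptor Blnk (2.01 ± 0.14, SE, adjusted p = 0.00851), and none fell, with a median of -0.14. Their summed intensities were between 3.33 and 5.33 in db/db and between 3.73 and 5.3 in db/+ eWAT. The largest part came from Ebf1, with means of 1.72 in db/db and 2.9 in db/+ eWAT. The B cell sums thus rest in large part on 1 bright gene and do not measure the number of B cells. Of the B cell markers, 4 were above 0 and 6 below. Cd22 was at 1.12 ± 0.31 (SE, limma adjusted p = 0.108), with no overlap between the groups. Cd79a, a defining B cell gene, was at -0.14 and did not pass (adjusted p = 0.551). It was near the bottom of the scale, at 0.0467 in db/db and 0.04 in db/+ eWAT. Of the 11 B cell markers, 5 had a mean Cy5 intensity at or below 0.1. None of 10 measured T cell markers passed, with a median of -0.12, 3 above 0 and 5 below. Of these markers, 8 had a mean Cy5 intensity at or below 0.1. Cd3e, a chain of the T cell receptor complex, was at 0.00. Its mean Cy5 intensities were 0.0467 in db/db and 0.0433 in db/+ eWAT, and its ratios had no spread. The brightest T cell marker, Zap70, was at -0.69 ± 0.24 (SE, limma adjusted p = 0.183), with no overlap between the groups. Adipocyte markers included 5 that fell and 1 that rose among 9 measured, with a median of -1.20. The part of these cell types in the class II values was not tested.

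**Figure D5:**
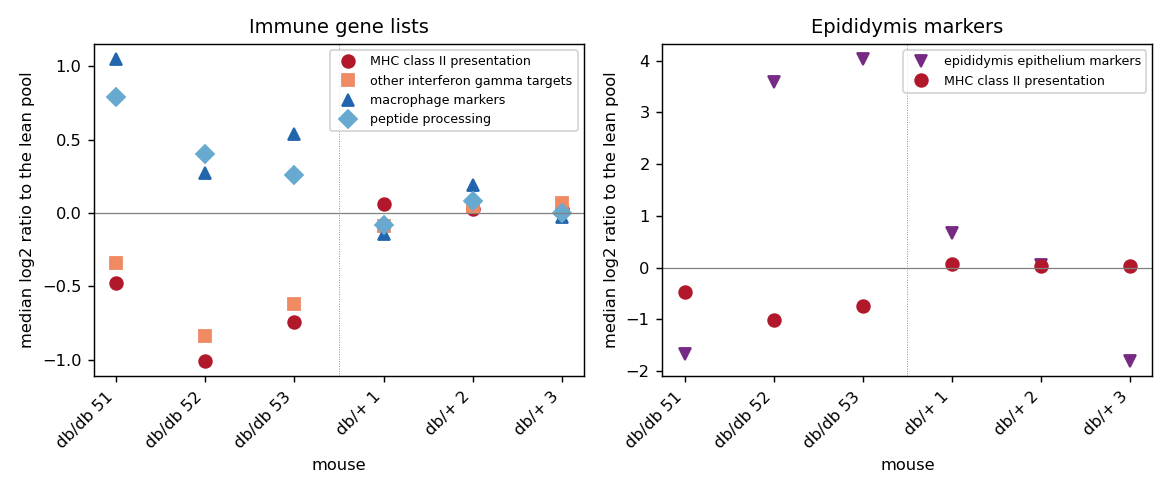
Median log2 ratio to the lean pool in each mouse, db/db left of db/+, for 4 immune gene lists (left) and for the epididymis markers beside the class II genes (right, on a wider axis). The class II median is at -0.48, -1.01 and -0.74 in the db/db mice while the macrophage median is at 1.05, 0.27 and 0.54, and the epididymis median differs between db/db mice 51, 52 and 53 (-1.68, 3.58 and 4.03).

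The genes most like the class II genes were sought over the 6 arrays among 5627 other genes with a mean Cy5 intensity of at least 0.5, by the root mean square difference from the class II median. The nearest was Psmb9, at 0.07 on the log2 scale, with log2 ratios of -0.42, -1.06 and -0.77 in db/db mice and -0.07, -0.02 and -0.03 in db/+ mice. Klf10, Zfp655, Rasa2 and Nadk followed, at 0.08, 0.09, 0.10 and 0.11. Of these 5 genes only Rasa2 passed the threshold (-0.82, limma adjusted p = 0.029).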

How the data were processed

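eWAT RNA from 3 db/db and 3 db/+ animals was measured on 6 two-colour arrays, each mouse in Cy5 against a lean pool in Cy3, with no dye swap; per the labels' protocols, 100 ng of total RNA was amplified in 2 rounds. Agilent Feature Extraction 8.5.1.1 is named in the submitters' processing notes. For 23556 probes the authors deposited, array by array, an intensity of either channel and a p-value, and for 23555 probes a series matrix of log10 ratios; how background, normalization and errors were handled the sources used here do not say. The table names db/db arrays by mouse number, so fits that leave out or block a numbered replicate used the series matrix, whose db/db replicates 1, 2 and 3 equalled the arrays of mice 51, 52 and 53 to within 0.005 on the log10 scale.

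Log2 ratios of Cy5 over Cy3 were taken without further normalization or filter. The number of arrays limits the precision. Symbols were updated through a RefSeq table (17207 probes current, 325 by accession, 1790 by synonym, 2017 as in the file, 2217 unnamed). A gene was its probe of highest mean Cy5 intensity with values on all 6 arrays, failing that with 2 or more values in both groups. The comparison, db/db minus db/+, used limma 3.58.1 in R 4.3.3 and Benjamini-Hochberg adjusted p-values over 17024 genes, called under 0.05; every standard error is limma's moderated one. The labels call the mice biological replicates. The fit was tested on simulated data. Python 3.11.15 with pandas 2.3.3, numpy 2.4.6 and matplotlib 3.10.9 served for tables and figures.

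The genes, lists and tests were chosen with earlier results of these data known. Named genes are the members, every gene of a list past the threshold in the immune lists, preset markers and the 5 genes most like the members. Some preset markers are not reported here. Psmb8, Brd2, Col11a2 and Rxrb were named by their place in the region, and Cd86 and Cd4 had no measured probe. Cd163, Csf1r, Mrc1, Fscn1, Cd24a, Ebf1, Cd22 and Zap70 were named to show the spread or the brightest genes of their lists. Alternatives covered scaling, loess, the series matrix, the Cy5 channel alone, the choice of probe, dim probes, a floor, the replicate block, the epididymis signal and leaving out replicates.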

Additional observations from a re-analysis of the deposited data

How the results depend on the processing

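Over 17 alternatives, each of the 118 values of the 7 class II genes stayed below 0; 27 of these values lost the threshold, 9 gained it and none reversed. H2-Eb1 passed the threshold in 11 of 17 alternatives (adjusted p between 0.00839 and 0.156), H2-Aa in 7 (0.0111 to 0.225) and H2-Ab1 in 6 (0.0114 to 0.271). The number of class II genes past the threshold, 3 as reported, was 0 after quantile normalization, 1 with a floor of 0.05 on intensities, 1 with the epididymis median as a covariate, 5 of 6 with dim genes left out, and between 0 and 7 when 1 replicate was left out. The share of all genes that fell moved as well, from 3.75% as reported to 0% after quantile normalization. It was 2.23% with the floor, 1.84% with the covariate and 6.85% with dim genes left out. When 1 replicate was left out it ran between 0.135% and 10.9%. The median log2 fold change of the class II genes ran between -0.94 and -0.65 when 1 replicate was left out. It was -0.52 without db/db replicates 2 and 3, and lay between -0.90 and -0.61 under the other alternatives. Over all genes the count of 1141 (44.1% of them higher) was 0 after quantile normalization (2093 without adjustment), 480 with only the Cy5 channel, 691 with the floor, 1790 without db/db replicates 2 and 3, and between 54 and 3417 when 1 replicate was left out. The share of higher calls was 59.7% with the covariate and 63.5% without db/db replicates 2 and 3. The cause of these changes was not tested.

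With the replicate number as a block, 0 genes and 0 class II genes passed (3083 genes and 5 class II genes at an unadjusted p under 0.05). Deviations of same-numbered mice from their group means correlated at -0.48, -0.41 and -0.02 over 16857 genes. Those of differently numbered mice correlated at between -0.31 and 0.44. Deviations from a mean of 3 mice sum to 0, so these values cannot show whether the numbers pair the mice. Intensities that come mostly in steps of 0.01 limit H2-Ob, and the top of the scale limits the brightest H2-Eb1 probes.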
